A study of Arabidopsis thaliana with 21 samples.

Results

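H2A.Z sites that carry acetylated histone H4 were defined from wild-type (WT) Arabidopsis seedlings as H2A.Z sites with at least 50% of their length under sites of H4 acetylation (H4Ac). A peak entered a site when at least 50% of its length lay in a peak of another WT replicate, and the kept peaks were merged where they overlapped by 200 bp or more. Of 7428 WT H2A.Z sites, 1811 met this rule (24.4%, 95% Wilson interval 23.4% to 25.4%, counting error only) and are called covered sites here. The other 5617 sites comprised 5376 without a single base of H4Ac, called H4Ac-free, and 241 that were partly covered. The 3 WT H2A.Z and 3 WT H4Ac lists chose the members, so the overlap itself and the WT calls at these sites are descriptions. The *mbd9-1* H2A.Z lists, the DNA sequence and the gene annotation took no part in the choice.

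All libraries analysed came from chromatin immunoprecipitation and sequencing (ChIP-seq) of Col-0 seedlings 6 days of age, without their roots, with 3 biological replicates per group. The groups were WT with an H2A.Z antibody, WT with a serum against acetylated H4, and *mbd9-1*, a T-DNA insertion allele of MBD9, with the H2A.Z antibody. In each replicate the same sheared chromatin was divided between both antibodies. The peak lists hold positions only, so reads per library, peak height and the expression of MBD9 or of tissue markers could not be checked in them. Each sample pooled many seedlings and most of the shoot's cell types, so a site shared by both marks may carry them in the same or in different cells.

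H2A.Z is a variant of histone H2A that the SWR1 complex places into nucleosomes, in plants mostly in the first nucleosomes after the transcription start site (TSS). Acetylation of the N-terminal tail of H4 is a mark of open, transcribed chromatin and is also placed near the TSS. MBD9 carries a bromodomain, a fold known in many proteins for binding acetylated lysine, and it interacts with SWR1. H2A.Z in plants is also known from the bodies of genes with low or inducible expression, where acetylation is scarce.

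Below are 200-base windows of the RefSeq TAIR10.1 genome from 8 fully covered sites, shown because these sites differed completely in the mutant. They are the 4 widest that were called in every WT and every *mbd9-1* H2A.Z library and the 4 widest called in every WT library without a base under any *mbd9-1* peak. Each window lies as near to the centre of its site as a window without UTR bases can, and is read 5′ to 3′ on the strand of the named gene, or for the pseudogene AT5G01335 on the minus strand, that of the nearest coding gene mSFC1. Capitals mark CG dinucleotides. The first 4 sites kept H2A.Z in *mbd9-1*.
PMR6: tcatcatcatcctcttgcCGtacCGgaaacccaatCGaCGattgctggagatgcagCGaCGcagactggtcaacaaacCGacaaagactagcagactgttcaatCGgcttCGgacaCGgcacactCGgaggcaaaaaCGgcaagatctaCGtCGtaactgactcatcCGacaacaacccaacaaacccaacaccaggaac
AT5G01335: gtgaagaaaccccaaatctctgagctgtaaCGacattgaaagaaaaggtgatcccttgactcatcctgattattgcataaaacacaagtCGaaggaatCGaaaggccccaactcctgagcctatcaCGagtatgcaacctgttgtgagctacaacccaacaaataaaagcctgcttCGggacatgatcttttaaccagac
AT2G36470: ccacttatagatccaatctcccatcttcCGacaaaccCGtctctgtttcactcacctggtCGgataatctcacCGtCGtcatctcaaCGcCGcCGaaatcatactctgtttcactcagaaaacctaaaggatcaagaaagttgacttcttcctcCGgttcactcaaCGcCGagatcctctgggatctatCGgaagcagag
AT1G09050: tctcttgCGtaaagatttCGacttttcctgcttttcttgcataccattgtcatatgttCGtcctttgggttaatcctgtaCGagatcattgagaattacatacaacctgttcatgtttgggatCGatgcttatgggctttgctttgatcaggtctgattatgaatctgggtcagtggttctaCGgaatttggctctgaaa
The next 4 sites had no *mbd9-1* peak.
AT1G70750: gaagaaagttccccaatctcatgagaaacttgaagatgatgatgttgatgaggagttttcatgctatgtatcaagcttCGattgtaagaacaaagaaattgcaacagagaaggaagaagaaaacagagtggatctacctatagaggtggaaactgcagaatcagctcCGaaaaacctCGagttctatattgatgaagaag
AT2G37020: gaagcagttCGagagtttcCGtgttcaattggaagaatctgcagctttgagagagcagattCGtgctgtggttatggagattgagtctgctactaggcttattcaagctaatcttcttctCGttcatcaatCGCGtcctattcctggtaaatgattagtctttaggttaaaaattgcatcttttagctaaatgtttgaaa
NDB2: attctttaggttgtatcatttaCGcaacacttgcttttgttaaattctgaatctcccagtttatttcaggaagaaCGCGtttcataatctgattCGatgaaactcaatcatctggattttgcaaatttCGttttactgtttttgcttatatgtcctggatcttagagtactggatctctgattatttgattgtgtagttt
FPS1: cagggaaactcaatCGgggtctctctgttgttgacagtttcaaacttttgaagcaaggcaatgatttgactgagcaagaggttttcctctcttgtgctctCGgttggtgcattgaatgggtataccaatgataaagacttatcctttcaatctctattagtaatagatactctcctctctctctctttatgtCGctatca

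The window in PMR6, a pectate lyase-like gene named for powdery mildew resistance, lies at chr3:20345600-20345799 in a coding exon and holds 15 CG dinucleotides. The window labelled AT5G01335 lies at chr5:140772-140971 in a pseudogene of the plus strand and holds 5. The window of AT2G36470, which encodes a protein of the DUF868 family, is at chr2:15300042-15300241 in a coding exon, with 12. The window of AT1G09050 is at chr1:2917331-2917530 in an intron, with 6. Among the sites without *mbd9-1* peaks, the window of AT1G70750, annotated as a myosin-binding protein, is at chr1:26682427-26682626 in a coding exon, with 3. The window of AT2G37020, a Translin family gene, is at chr2:15546762-15546961 and holds 6, with 146 of its 200 bases coding and the rest intron. The window of NDB2, an NAD(P)H dehydrogenase, is at chr4:2572975-2573174 in an intron, with 5. The window of FPS1, a farnesyl diphosphate synthase of isoprenoid synthesis, is at chr5:19345722-19345921 and holds 3, with 116 of its bases coding and the rest intron. The GC content ranged from 40.5% to 52% in the first set and from 33% to 40.5% in the second, which describes 8 chosen sites only.

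The site in PMR6 was 1115 bp wide. WT H2A.Z peaks covered 100%, 52.4% and 59.1% of it in replicates 1, 2 and 3, and *mbd9-1* peaks covered 78.6%, 73.8% and 59.6%. Every H4Ac library covered all of it. The site of 1032 bp in FPS1 was under WT H2A.Z peaks for 97.9%, 90.21% and 87.8% of its length and under H4Ac peaks for 100%, 99.7% and 100%, and no *mbd9-1* peak touched it. The site of 1034 bp in NDB2 was covered to 98.9%, 90.9% and 83.8% by WT H2A.Z peaks and to 93.6%, 91.5% and 87.0% by H4Ac peaks, again with 0% in each *mbd9-1* library. All of them were called in every WT library, and they stood at opposite ends in the mutant, as the rule that picked them required.

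Covered sites reproduced between the WT H2A.Z libraries about as often as the rest. A library called a site when at least 50% of the site lay under its peaks. Of the covered sites, 93.0%, 70.4% and 82.8% were called in WT H2A.Z replicates 1, 2 and 3, against 93.0%, 69.7% and 84.8% of the other sites, and 46.4% against 47.6% were called in all 3. H4Ac replicates 1, 2 and 3 called 93.8%, 86.6% and 88.2% of the covered sites, and 1361 of 1811 (75.2%) were called in all 3 H4Ac lists. H4Ac-free sites were rarely called in a single H4Ac library, at 2.60%, 0.949% and 1.13% in replicates 1, 2 and 3. The H4Ac cover was mostly complete, with 1004 sites (55.4%) under H4Ac along their whole length. Covered sites had a median width of 716 bp (quartiles 570.5 and 889.5 bp), the other sites 808 bp (601 and 1116 bp). Together they spanned 1386 kb, or 1.16% of the nuclear chromosomes, and made up 22.8% of the H2A.Z sites on chromosome 2 and 24.0% to 24.9% on the other chromosomes.

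Few sites lay close to the threshold. Between 45% and 50% cover there were 34 sites, and between 50% and 55% there were 38. The members nearest to the limit were IPMI1, a subunit of isopropylmalate isomerase, with 50% cover, MEE67 with 50.1% and CHR24, a chromatin remodeller, with 50.1%. Just below it were a site upstream of CYP705A15, a cytochrome P450 gene, with 49.9%, and sites in AT1G02020 with 49.6% and AT4G26960 with 49.4%.

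In WT, H4Ac sites were more numerous than H2A.Z sites and mostly lay elsewhere. Of 11115 H4Ac sites, 1798 (16.2%) held a covered H2A.Z site and 9072 (81.6%) had no H2A.Z base. The H4Ac sites with a covered site had a median width of 951 bp, against 919 bp for those without H2A.Z, and their centres lay at a median of 389 and 393 bp after the nearest TSS. Nearly all held a single covered site, and 13 held 2. The first of these in genome order joined a site in LOV1, a disease resistance gene of the nucleotide-binding type, with one in RECQ4A, a DNA helicase gene, both called in all 3 WT libraries and in no *mbd9-1* library.

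Covered sites lay at the start of genes. The centre fell in a protein-coding gene for 1736 of 1811 covered sites (95.9%, Wilson interval 94.8% to 96.7%) and for 87.3% (86.4% to 88.1%) of the other sites. Only 2.37% of covered and 6.84% of other sites were centred upstream of a TSS within 2000 bp, and 0.331% and 1.83% within 1000 bp after the gene's end. Centres within 1000 bp after a TSS made up 85.5% of covered sites and 63.4% of the others. The median centre was 421 bp after the TSS for covered sites (quartiles 295 and 559 bp) and 454 bp for the others (200 and 793 bp), so the covered sites were placed more tightly around a similar point.

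Within genes the H4Ac site reached past the H2A.Z site on both sides, more so towards the promoter. Over the 1736 covered sites in genes, the H2A.Z site began at a median of 68 bp after the TSS and ended at 817 bp, while the H4Ac site began 47 bp before the TSS and ended at 893.5 bp. The 5′ end of H4Ac was upstream of that of H2A.Z at 75.9% of sites, by a median of 106 bp over all of them. Its 3′ end was downstream at 67.2%, by a median of 72 bp. The centres differed by a median of only -20.5 bp in the direction of transcription. Since the rule asks for cover, some excess of H4Ac on both sides is built in, and no test was made of it.

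The same placement was seen when each WT replicate was taken alone, with its own H4Ac library from the same chromatin. These are the lists that chose the members, so this is no separate support. H4Ac sites themselves were centred at a median of 391 bp after the nearest TSS. The part of this in the placement of the peaks they cover was not tested. In replicates 1, 2 and 3, 86.8%, 85.6% and 86.3% of H2A.Z peaks that were at least 50% under H4Ac peaks had their centres within 1000 bp after a TSS, against 62.1%, 61.4% and 60.1% of the peaks with no H4Ac base. The mean difference was 25.05 ± 1.09 percentage points (SD, n = 3). The share of centres in protein-coding genes was 9.69 ± 1.04 points higher. Genes that held a covered peak were longer, with median lengths of 2455, 2443 and 2504 bp against 2018, 2061 and 2076 bp, and had a median of 5, 4 and 5 exons against 3 in each replicate. Peak width differed by -121, -13 and -102 bp. All 8 features compared had the same direction in 3 of 3 replicates, and each gave p = 0.25 in a two-sided exact sign-flip permutation test (adjusted p = 0.25), the smallest that 3 pairs allow, so none could pass 0.05.

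**Figure D1:**
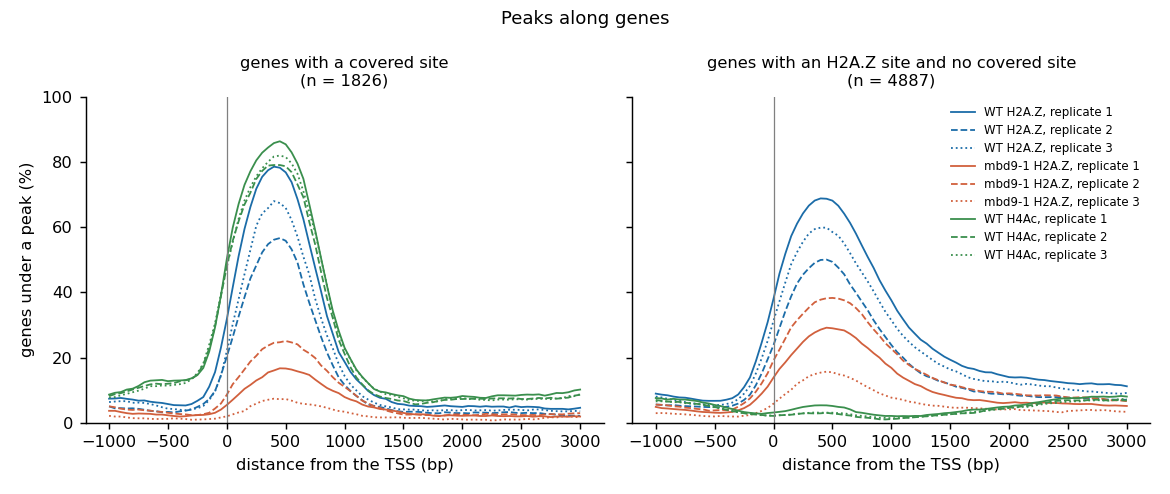
Share of genes under a peak (y axis, %) by distance from the TSS (x axis, bp), for 1826 protein-coding genes that hold a covered site and 4887 with H2A.Z sites of which none is covered. Each line is 1 library. In the genes with a covered site the *mbd9-1* lines reach 7.39% to 25.1% and the WT H2A.Z lines 56.6% to 78.5%.

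A protein-coding gene held a site when at least 200 bp of it lay in the gene's body. By this count 1826 of 27444 genes (6.65%) held a covered site and 4887 (17.8%) held H2A.Z sites of which none was covered, while 9652 (35.2%) held H4Ac without H2A.Z and 11079 (40.4%) neither mark. Along the 1826 genes, H2A.Z and H4Ac were highest at the same distance from the TSS, which the rule of overlap largely fixes. The highest point was at 400 to 450 bp in the WT H2A.Z libraries, at 400 to 450 bp in the H4Ac libraries and at 400 to 500 bp in *mbd9-1*. At that point 16.7%, 25.1% and 7.39% of these genes were under a peak in *mbd9-1* replicates 1, 2 and 3, and 78.5%, 56.6% and 68.0% in WT. In the 4887 genes without a covered site the *mbd9-1* values were 29.2%, 38.3% and 15.67% and the WT values 68.8%, 50.03% and 59.8%. The mean in *mbd9-1* was 0.242 times that in WT for genes with a covered site and 0.465 times for the others. The WT values come from the lists that chose the genes, so this ratio is a description. In both sets the highest position was at 400 to 500 bp in every H2A.Z library of either genotype. Over all protein-coding genes it was at 400 to 450 bp in the WT H2A.Z and the WT H4Ac libraries.

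In *mbd9-1*, covered sites were called less often than the other H2A.Z sites in every library. Replicates 1, 2 and 3 called 16.5%, 25.2% and 5.19% of the 1811 covered sites, and 25.5%, 37.5% and 9.83% of the other sites. No *mbd9-1* library called 1259 covered sites (69.5%, Wilson interval 67.4% to 71.6%), against 56.6% (55.3% to 57.9%) of the H4Ac-free sites and a background of 59.3% over all 7428 sites. All 3 called 65 covered sites (3.59%, 2.83% to 4.55%), against 5.99% of the H4Ac-free sites and a background of 5.43%. Not a single base under an *mbd9-1* peak was found at 59.8% of covered and 41.5% of H4Ac-free sites. Restricting both sets to sites called in all 3 WT libraries left 840 covered and 2516 H4Ac-free sites, of which 61.8% (58.5% to 65.01%) and 48.9% (46.9% to 50.8%) were called in no *mbd9-1* library. The study compared read counts and found H2A.Z significantly reduced in *mbd9-1* at only a minority of its WT sites. A site without a call here is thus not shown to have lost H2A.Z.

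One *mbd9-1* library stood apart in peak width. The median peak of replicate 3 had 381 bp, which was also the width of 64.4% of its peaks, so that 1 such peak could call no site wider than 762 bp. Of the covered sites 44.7% were wider than that, and of the other sites 57.3%. With replicate 3 left out, 11.8% of covered sites were called in both remaining *mbd9-1* libraries.

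**Figure D2:**
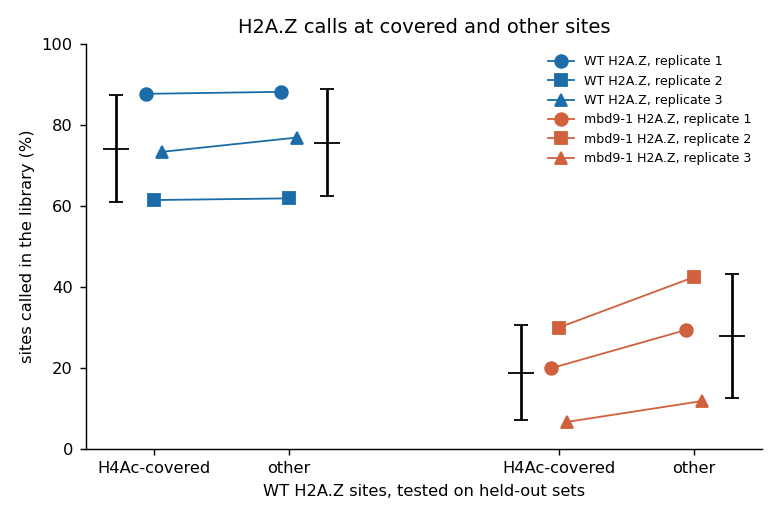
Percent of sites called (y axis) in each H2A.Z library at covered and at other WT H2A.Z sites, with WT libraries tested on sites they did not help to choose. Points of 1 library are joined, and black bars show the mean and SD of 3 libraries. The WT lines are nearly level, and the *mbd9-1* lines run from 6.64% to 30.0% at covered sites up to 11.8% to 42.4% at other sites.

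So that no WT library was tested on sites it had helped to choose, sites were rebuilt from each pair of WT H2A.Z lists. The WT library left out of the pair was tested on them, and the *mbd9-1* libraries were tested on all 3 such sets. WT replicates 1, 2 and 3 called 87.7%, 61.4% and 73.4% of the covered sites held out in this way, and *mbd9-1* replicates 1, 2 and 3 called 19.9%, 30.0% and 6.64%. The groups did not overlap. WT averaged 74.2 ± 13.1% (SD, n = 3). For *mbd9-1* the mean was 18.8 ± 11.7% (SD, n = 3), and the difference -55.3 percentage points (exact permutation test, two-sided, p = 0.1). With 3 libraries against 3 this is the smallest p possible, and no comparison of the genotypes could pass 0.05. All sets still came from WT lists and held sites chosen for reproducing in WT. How much of the difference comes from that choice was not tested.

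The deficit of covered sites relative to other sites was larger in *mbd9-1* than in WT. On the held-out sets the share called at covered sites minus that at other sites was -0.49, -0.42 and -3.53 points in WT replicates 1, 2 and 3. It was -9.45, -12.4 and -5.16 points in *mbd9-1* replicates 1, 2 and 3. Every *mbd9-1* library was thus below every WT library, which no longer held when members had to be at least 80% under H4Ac (-7.06 points, p = 0.2, exact permutation test). WT averaged -1.48 ± 1.77 points (SD, n = 3) on this measure. The *mbd9-1* mean was -9.02 ± 3.66 points (SD, n = 3), which differs by -7.54 points (exact permutation test, two-sided, p = 0.1, the smallest possible). As a ratio, covered sites were called 0.994, 0.993 and 0.954 times as often as the others in WT and 0.678, 0.706 and 0.563 times as often in *mbd9-1*. The size depended on what counts as a call. It was -12.9 points (p = 0.1, exact permutation test) when 1 bp of peak sufficed and -3.06 points (p = 0.5, exact permutation test) when 80% of the site was required. With calls from 80% the groups also overlapped, with WT libraries at -8.49 to 2.88 points and *mbd9-1* libraries at -7.13 to -1.73 points.

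Width and place moved with H4Ac cover, and the comparison was repeated within classes of both. For sites over 500 and up to 800 bp, covered minus other was 1.49, 2.94 and -1.23 points in the WT libraries and -7.08, -6.57 and -4.63 in the *mbd9-1* libraries. For sites over 800 and up to 1200 bp it was 0.49, 1.81 and 4.63 in WT and -6.28, -7.53 and -5.30 in *mbd9-1*. In both classes the genotypes did not overlap (p = 0.1, exact permutation test). They overlapped for sites of 500 bp or less (difference of the means -3.31, p = 0.6) and for sites of more than 1200 bp (-9.89, p = 0.2) in the same exact test, the latter class holding 108 covered sites. Among sites over 500 and up to 800 bp with centres within 1000 bp after a TSS, a class added after the data had been seen, covered minus other was 0.73, 1.89 and 0.06 points in WT and -10.5, -10.8 and -5.82 in *mbd9-1*. The mean difference between genotypes was -7.16, -8.68 and -9.92 points in these 3 classes, beside -7.54 over all sites.

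**Figure D3:**
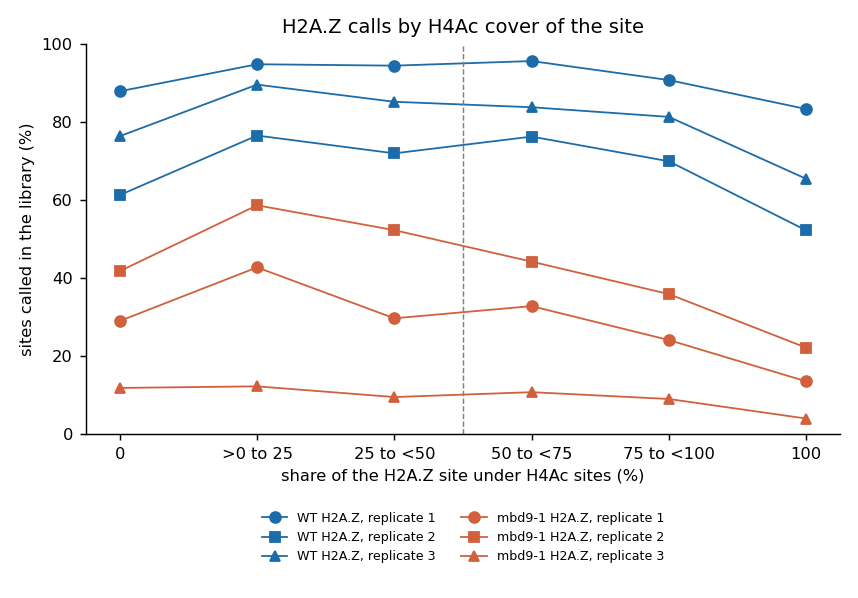
Percent of held-out WT H2A.Z sites called in each library (y axis) by the share of the site under H4Ac sites (x axis, %). The dashed line marks the 50% limit of the covered sites. From partly to fully covered sites the *mbd9-1* lines drop to 4.0% to 22.2%, while the WT lines end at 52.2% to 83.3%.

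Calls in *mbd9-1* were fewest at fully covered sites. In sites without H4Ac, 29.0%, 41.8% and 11.8% were called in *mbd9-1* replicates 1, 2 and 3, and in fully covered sites 13.5%, 22.2% and 3.99%. WT replicates 1, 2 and 3 called 87.9%, 61.3% and 76.4% of the former and 83.3%, 52.2% and 65.4% of the latter, so fully covered sites were called less often in WT too. The mean in *mbd9-1* was 0.366 times that in WT at sites without H4Ac, 0.343 times at 50% to under 75% cover, 0.285 times at 75% to under 100% and 0.197 times at full cover. Sites with over 0% to 25% cover had the highest ratio, at 0.436, and rested on 77 to 98 sites per set. Width went along with cover, with a median of 625.5 bp at full cover, 963.5 bp at 50% to under 75% and 797 bp without H4Ac. Within sites over 500 and up to 800 bp, 9.77%, 16.9% and 3.36% of 655 fully covered and 18.4%, 26.0% and 9.14% of 2058 H4Ac-free sites were called in *mbd9-1* replicates 1, 2 and 3. The 54 sites of this width with 50% to under 75% cover went the other way, at 31.5%, 37.0% and 11.1%.

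The overlap was also measured from the peaks of each library, without WT H2A.Z sites. WT H4Ac sites covered 21.8%, 20.5% and 19.1% of the length of the H2A.Z peaks in WT replicates 1, 2 and 3, and 13.6%, 14.8% and 7.58% in *mbd9-1* replicates 1, 2 and 3. The means were 20.5 ± 1.37% (SD, n = 3) and 11.99 ± 3.86% (SD, n = 3), a difference of -8.47 points without overlap of the groups. Since overlap of the WT lists is what the rule used, this is a description and no test is given. Of the 3981 sites built from the *mbd9-1* lists, 597 (15.0%, Wilson interval 13.9% to 16.1%) were at least 50% under WT H4Ac sites. H4Ac in *mbd9-1* itself was not analysed here.

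Libraries made from the same chromatin were compared with the other pairs. Between WT H2A.Z and H4Ac libraries of the same number, 27.6%, 21.8% and 21.9% of the H2A.Z peaks lay at least 50% under H4Ac peaks, a mean of 23.8%, against 23.7% over the 6 other pairs. The difference of 0.11 points gave p = 0.5 (exact permutation test over the 6 pairings, two-sided), where the smallest possible p is 0.167. It was -0.0106 points without replicate 1 and 0.312 points (p = 0.167, exact permutation test) when 1 bp of overlap sufficed, so the comparison does not settle whether such libraries share more.

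Covered sites that were called in *mbd9-1* differed from those that were not in width, place and base composition. In *mbd9-1* replicates 1, 2 and 3, the called covered sites numbered 298, 457 and 94. Their GC content was 42.4%, 41.9% and 41.98%, against 40.7%, 40.7% and 40.9% in the covered sites not called, a mean difference of 1.35 ± 0.34 points (SD, n = 3). They were wider, with medians of 841, 812 and 797.5 bp against 690, 678 and 712 bp, and lay further into the gene, at medians of 457, 461 and 462.5 bp against 413, 406 and 418 bp after the TSS. Their genes had a median of 3, 4 and 4 exons, against 5 in each library for the sites not called. The CpG observed over expected ratio had no common direction, since it was higher in 2 of 3 libraries. H4Ac-free sites called in *mbd9-1* differed from those not called by 1.54 ± 0.17 points in GC content and by 155 ± 70.3 bp in width (SD, n = 3), where covered sites differed by 124 ± 34.0 bp. The share with centres within 1000 bp after a TSS differed by -5.49 ± 2.28 points for called covered sites and by 9.93 ± 2.55 points for called H4Ac-free sites (SD, n = 3 each). These values were compared after the data had been seen and were not tested.

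**Figure D4:**
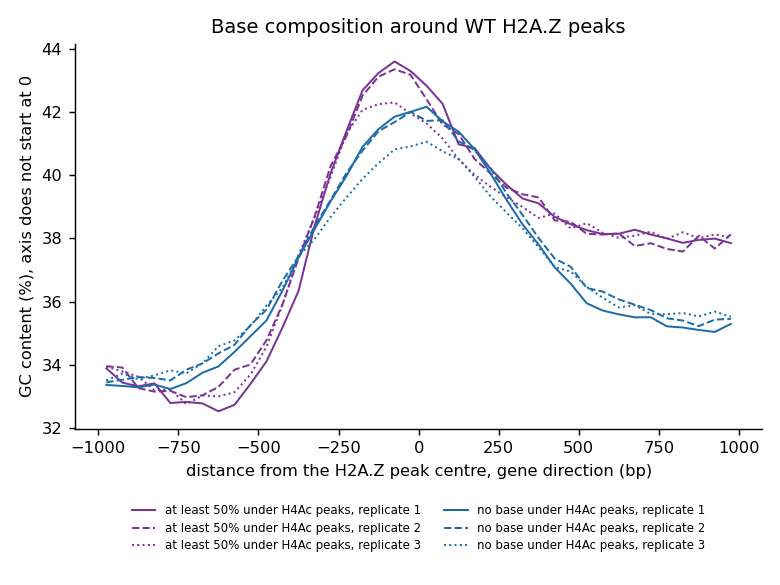
Mean GC content (y axis, %, not starting at 0) in bins of 50 bp by distance from the centre of a WT H2A.Z peak in the direction of the gene (x axis, bp), for peaks at least 50% under, or without a base under, the H4Ac peaks of the same replicate. Each line is 1 replicate. In the bin from 100 to 50 bp before the centre the covered peaks average 43.1% and the bare peaks 41.4%.

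Base composition differed between covered and bare peaks in WT. In replicates 1, 2 and 3 the GC content was 41.6%, 41.6% and 41.0% in covered and 40.5%, 40.7% and 39.9% in bare peaks, a difference of 1.02 ± 0.10 points (SD, n = 3). The CpG observed over expected ratio was 0.905, 0.902 and 0.876 against 0.820, 0.829 and 0.797, a difference of 0.08 ± 0.01 (SD, n = 3). Around the centre the profiles crossed. From 650 to 600 bp before the centre covered peaks had 32.9 ± 0.39% and bare peaks 34.3 ± 0.32%, from 100 to 50 bp before it 43.1 ± 0.69% and 41.4 ± 0.55%, and from 950 to 1000 bp after it 38.0 ± 0.14% and 35.4 ± 0.12% (SD, n = 3 each). Covered peaks thus had the steeper step from an AT-rich flank on the promoter side to a GC-rich gene side. GC content and the CpG ratio are 2 of the 8 features tested above, with the same p = 0.25 in the exact sign-flip permutation test. Place in the gene also differed between the sets, and its part in the base composition was not tested.

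Short motifs were counted on either strand in 400 bp at the centre of each site. The telo box AAACCCTA, an element common near plant TSSs, was in 13.7% (Wilson interval 12.2% to 15.4%) of covered and 7.28% (6.63% to 7.99%) of other sites, and in 11.4% of the same-sized windows of all protein-coding genes, centred at the median distance of covered sites from the TSS. GAGAGA was in 58.9% (56.6% to 61.1%) of covered and 44.6% (43.3% to 45.9%) of other sites, and in 45.1% of the windows of all genes. CACGTG, the G-box bound by bHLH and bZIP factors, was in 2.82% (2.15% to 3.68%) of covered and 5.98% (5.39% to 6.63%) of other sites, and in 4.45% of the windows of all genes. In windows at that distance from the TSS, the telo box was in 12.98% of genes with a covered site. It was in 9.8% of genes with H2A.Z sites of which none was covered and in 16.1% of genes with H4Ac alone. In the same order GAGAGA was in 54.5%, 44.6% and 51.45%, and CACGTG in 3.56%, 6.06% and 3.42%. Genes with a covered site thus had the telo box less often than genes with H4Ac alone, and GAGAGA and CACGTG at close shares. In promoters, from 250 bp before to 50 bp after the TSS, the site II element TGGGCC was in 18.5% (16.7% to 20.3%) of genes with a covered site, 12.6% (11.7% to 13.5%) of genes with H2A.Z sites of which none was covered, 22.1% (21.3% to 22.9%) of genes with H4Ac alone and 15.5% of all protein-coding genes. Promoters held GAGAGA in 28.4% (26.3% to 30.5%) of genes with a covered site and 31.9% (30.6% to 33.2%) of genes with H2A.Z sites of which none was covered. They held the telo box in 6.08% and 7.08% in the same order. At site centres TATAAA was in 18.9% of covered and 25.7% of other sites, TGGGCC in 3.64% and 4.33%, and AAAAAAA in 21.1% and 20.0%. A match is a run of letters and no evidence of binding.

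**Figure D5:**
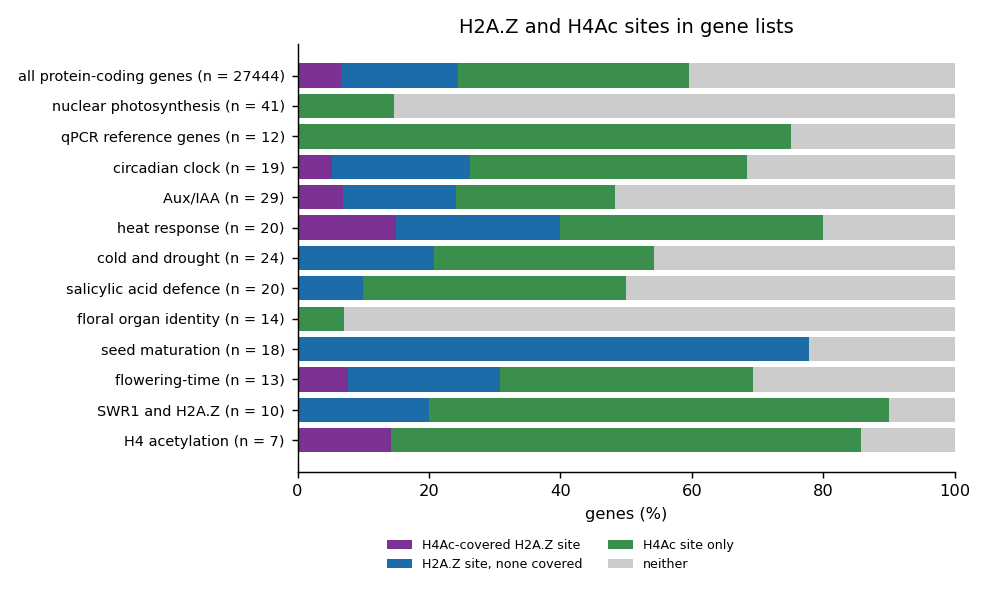
Percent of genes (x axis) of each list (y axis, n genes) that hold a covered H2A.Z site, H2A.Z sites of which none is covered, an H4Ac site only, or neither mark. Over all genes 6.65% hold a covered site. No seed maturation gene does, although 14 of 18 hold H2A.Z.

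Of the gene lists examined, seed maturation had the most H2A.Z and no covered site. H2A.Z without cover lay in 14 of 18 of its genes (77.8%), against a background of 17.8%, and none of the 18 held an H4Ac site, although the H2A.Z site in ABI5 was called in 1 H4Ac library. Among these were LEC2, FUS3 and ABI3, regulators of embryo maturation, and EM1 and SESA2, which encode a late embryogenesis protein and a seed storage albumin. None of 41 nuclear photosynthesis genes and none of 12 genes used as qPCR references held an H2A.Z site, while 6 and 9 of them held H4Ac. At list sizes of 41 and 12 a count of 0 has an upper Wilson limit of 8.57% and 24.2%. Any H2A.Z site was held by 24.5% of all genes, above the first limit and barely above the second. H4Ac without H2A.Z was in 35.2% of all genes. The count of 6 in 41 lies below this share and that of 9 in 12 above it.

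Heat response genes held 3 covered sites in 20 genes (15.0%, Wilson interval 5.24% to 36.0%), beside the background of 6.65% of all genes. HSP101, a chaperone that dissolves protein aggregates after heat, held a site of 942 bp at chr1:27939526-27940467 that was fully under H4Ac. HSP90.1 held one of 680 bp with 97.8% cover and HSP70 (AT3G12580) one of 1017 bp with 68.6%. All 3 were called in every WT H2A.Z library and in no *mbd9-1* library. Of the 5 heat genes with H4Ac-free sites, 3 had the site called in an *mbd9-1* library. These were the small heat shock protein genes HSP22.0 (1272 bp, 1 library, also called in 1 H4Ac library), HSP21 (1251 bp, 2 libraries) and HSP17.6II (1098 bp, 2 libraries). The sites in HSP18.2, of the same family, and in the heat shock factor gene HSFA2 were called in none. These counts leave out 2 heat genes whose symbols did not match the annotation. HSP15.7 (AT5G37670) held a site of 658 bp fully under H4Ac, called in 2 WT and no *mbd9-1* libraries. HSP23.6 (AT4G25200) held an H4Ac-free site of 882 bp, called in 2 *mbd9-1* libraries.

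The remaining lists had at most 2 covered genes each. In the Aux/IAA family of auxin response repressors, IAA19 held a covered site of 783 bp (82.9% under H4Ac) and IAA26 one of 461 bp (100%), 2 of 29 genes. Their sites were called in no *mbd9-1* library. Of 5 H4Ac-free sites in the family, those in IAA31 (1343 bp), IAA6 and IAA20 were called in 1 *mbd9-1* library each and those in IAA17 and IAA33 in none. Of 19 clock genes, LNK2 alone held a covered site (659 bp), and CCA1, LHY, ELF4 and FKF1 held H2A.Z without cover. Of 13 flowering-time genes, FLC, the MADS-box repressor of flowering, held a covered site of 605 bp at chr5:3178781-3179385, fully under H4Ac, called in 2 WT and no *mbd9-1* libraries. FT, SOC1 and LFY held H4Ac-free H2A.Z sites, of which that in SOC1 was called in 1 H4Ac library. Of 7 genes for H4 acetylation, HDA6, a histone deacetylase, held a fully covered site of 1000 bp that was called in 3 WT and 1 *mbd9-1* library. No covered site lay in the 24 cold and drought, 20 salicylic acid defence, 14 floral organ identity or 10 SWR1 and H2A.Z genes. Of these, 5, 2, 0 and 2 held H2A.Z sites of which none was covered. HTA11 and HTA8, which both encode H2A.Z, held such sites of 1163 and 1024 bp, called in 1 and in 3 *mbd9-1* libraries. Of the 5 cold and drought genes, 3 held an H4Ac-free site, and the one in CBF3 was called in 1 H4Ac library. At list sizes of 24, 20, 14 and 10 a count of 0 has an upper Wilson limit of 13.8%, 16.1%, 21.5% and 27.8%. The share of all genes with a covered site, 6.65%, lies below each limit. H2A.Z sites of which none is covered were in 17.8% of all genes.

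Over the 8 genes with a covered site that stayed in the lists, 1 site was called in any *mbd9-1* library. Such a call was found in 30.4% of the 1826 genes with a covered site and 47.1% of the 4887 genes without one. Other genes named for H2A.Z in the study lacked cover. AT1G62760, AT5G28410, AT4G15960, AT1G76740 and 4CL2 (AT3G21240), a phenylpropanoid ligase, held H2A.Z sites with 0% under H4Ac. One of 2 sites in AT1G76740 was called in all 3 *mbd9-1* libraries. ASK11, At4, AT2G34202 and ACT2 held no H2A.Z site of at least 200 bp in the gene. By qPCR after immunoprecipitation the study found H2A.Z at ASK11 and At4 in WT and its depletion in *mbd9* mutants, with ACT2 as control. The study classed sites near AT2G34202, AT1G62760 and AT5G28410 as dependent on MBD9. Sites near AT4G15960, AT1G76740 and AT3G21240 it classed as independent.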

How the data were processed

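Per the study's methods, the authors aligned reads against TAIR10 (Bowtie2), filtered them for quality, discarded organellar reads, and ran the region mode of HOMER on unscaled reads of each library with input as control. The deposited lists have 3 columns that place each peak in bp (chromosome, start, end), with no count, score or p-value. For Bowtie2 and HOMER no version is given in the sources used here. The 9 lists used had 5215 to 9260 H2A.Z peaks and 10439 to 12030 H4Ac peaks. They hold no read numbers. The study states minimum read numbers for its replicates, which were not used here. The libraries of *arp6-1*, H4Ac libraries of *mbd9-1* and input libraries were not analysed here.

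Groups came from the labels. Sites were rebuilt after the study's description. It does not say whether its 50% overlap applies to one or both peaks, 50% of a peak's own length was used, and the sites need not be those of the study. Genes and sequence were read from the RefSeq copy of TAIR10.1, whose nuclear chromosomes have the lengths of TAIR10. Gene symbols were checked against it, and pairs of symbol and locus that did not match were dropped. Calculations used Python 3.11.15, NumPy 2.4.6 and SciPy 1.17.1, and figures matplotlib 3.10.9. Genotypes were compared over libraries by exact two-sided permutation tests and replicates by sign flips, with Benjamini-Hochberg adjustment over the 8 features. Wilson intervals at 95% cover counting error only, and neighbouring sites are not independent. The calculations were tested on simulated lists.

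The members and lists were chosen with earlier results of these data known. Named sites are the widest fully covered ones kept or without peaks in *mbd9-1*, those nearest to 50% cover, H4Ac sites with the most members, genes the study names for H2A.Z, and in each gene list the widest covered and H4Ac-free sites. Other list genes were named after their values were seen. Replicate numbers pair WT H2A.Z with WT H4Ac libraries, which share chromatin. Between WT and *mbd9-1* the sources used here state no pairing. Alternatives changed the overlap between replicates, merging, cover and call limits, list length, narrow peaks, width and place classes, and libraries left out.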

Additional observations from a re-analysis of the deposited data

How the results depend on the processing

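Of 173 alternative values, 1 reversed, 25 counts or shares moved and 147 did neither, which for tested values means only that the direction and the side of 0.05 stayed. The deficit in covered sites called in *mbd9-1* ranged from -60.9 to -40.1 points, and covered minus other sites, *mbd9-1* minus WT, from -12.9 to -3.06 points, negative in each. The difference in H4Ac share of peak length ranged from -9.85 to -6.26 points. With a replicate block these first 2 differences stayed at -55.3 and -7.54 points (p = 0.25, exact sign-flip permutation test, the smallest possible). Deviations of same-numbered WT and *mbd9-1* libraries across sites correlated at -0.02 to 0.03, and at 0.01 to 0.06 over covered sites. Same-numbered WT H2A.Z and WT H4Ac libraries, which share chromatin, correlated at only -0.02 to 0.01 over covered sites. The measure thus misses a known pairing and cannot decide whether the numbers pair the genotypes.

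The number of covered sites was 710 with a peak in both other replicates, 1026 with lists of equal length, 822 without narrow peaks and 1023 to 1613 with a library left out, 1023 without WT H2A.Z replicate 1 and 1190 without replicate 3. The share called in no *mbd9-1* library was 59.8% with calls from 1 bp, 85.7% with calls from 80% and 61.9% to 82.2% with a library left out. The share in all libraries left was 3.20% to 11.8%, the highest without *mbd9-1* replicate 3. The share centred in a gene was 98.5% with all annotated genes, 96.8% by an overlap of 200 bp and 94.7% to 96.0% with a library left out. The same-number overlap ranged from -0.0106 to 0.27 points with a replicate left out and was 0.312 points by 1 bp. Where a WT library was left out of the genotype tests, it still helped to build the sites of the others. Reads per library are not in the lists, so a site just under the caller's limit cannot be told from a lost one.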

Other observations

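Of 12 words counted in the annotated product names, chosen after the data had been seen and not tested, 4 had Wilson intervals that did not overlap between genes with a covered site and genes with H2A.Z sites of which none is covered. Pentatricopeptide repeat proteins, which mostly act on organelle RNA, made up 2.35% (Wilson interval 1.75% to 3.16%) of the 1826 genes with a covered site, 0.737% (0.533% to 1.02%) of the 4887 others with H2A.Z, 1.11% of the 9652 genes with H4Ac alone and 0.955% of all protein-coding genes. Products named helicase made up 1.04% (0.667% to 1.62%), 0.368% (0.233% to 0.581%), 0.570% and 0.466% in the same order. Cytochrome P450 genes, enzymes of specialised metabolism, made up 0.383% (0.186% to 0.789%), 1.80% (1.46% to 2.21%), 0.321% and 0.904%. F-box genes made up 1.31% (0.885% to 1.95%), 4.28% (3.74% to 4.88%), 0.881% and 2.38%. For the other 8 words the intervals overlapped. These were ribosomal protein, kinase, RING, disease resistance, transcription factor, transporter, glycosyltransferase and leucine-rich repeat, with kinase, for example, at 6.24% (5.22% to 7.45%) and 5.32% (4.73% to 5.99%). For P450 and F-box names the genes with a covered site were thus close to the genes with H4Ac alone. Other words set these 2 classes apart, with intervals that did not overlap. Ribosomal protein was in 0.876% (0.540% to 1.42%) against 2.36% (2.08% to 2.68%) with H4Ac alone. Glycosyltransferase was in 0.767% (0.457% to 1.28%) against 0.321% (0.226% to 0.456%), and leucine-rich repeat in 1.59% (1.11% to 2.27%) against 0.705% (0.556% to 0.892%). Pentatricopeptide names were also apart.

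Genes with a covered site were close to genes with H4Ac alone in length, and lay between the other classes in their share of single-exon genes. Their median length was 2458.5 bp and 18.24% had a single exon, against 2524 bp and 11.5% for genes with H4Ac alone, and 1916 bp and 25.1% for genes with H2A.Z sites of which none is covered. Over all protein-coding genes the values were 2078 bp and 20.0%.

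A covered and an H4Ac-free site in the same gene were found in 35 genes. The covered site was the one nearer to the TSS in 17 of them (48.6%).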
